A study of Mus musculus with 4 samples.

Results

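Reads that carry no annotation and match no stretch of the genome were described in small RNA libraries of mouse sperm. A distinct sequence was a member where it was 18 nt or longer, was marked as not matching the genome, and had no annotation in any library that held it. After the 4 libraries were joined by sequence, 841783 of 1611102 distinct sequences were members, and they held 10088449 reads. The rule uses these marks and the length, not the levels.

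Libraries were made from 2 samples of C57BL mice labelled Mdd and from 2 samples of C57BL control mice. The Mdd mice met a daily changing stressor, among them bare, tilted or damp cages, noise, strobe light, restraint, isolation and shifted light cycles, and the control mice were left alone apart from care. The protocol names TRIzol RNA of sperm, a short size fraction and a MGIEasy library kit, while the tissue and cell type fields name testis and testicular cells. The labels used here name neither age nor any genotype beyond the strain, and no label says that replicates came from separate mice, so p-values cover only the spread between these libraries, which may be technical.

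Small RNA reads can fail to match a genome for known reasons that leave a recognisable trace. Transfer RNAs carry methyl groups on the base-pairing face of some bases, such as N1-methyladenosine in the T-loop, and reverse transcriptase often inserts another base opposite them. Cells also add bases to the 3′ ends of RNA without a template, such as the short poly(A) tails of mitochondrial RNA and the adenines and uridines added to small RNAs. Members were therefore compared with every annotated sequence of 17 nt or longer in the same files, here called the parent. A member was near a parent where it differed from it by 1 substitution, or equalled it plus a tail of 1 to 3 bases at the 3′ end.

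The first sequences shown carry the most read substitution and come from tRNA fragments that begin in the anticodon arm and cross the T-loop. Of these, only the Gly-GCC fragment reaches the CCA at the 3′ end, and the others stop before it. They are shown as the files hold them, in DNA letters and 5′ to 3′, with the changed base in capitals and its position counted from 1 at the 5′ end of the fragment. The annotated form stands before its members. RefSeq (GRCm38.p6) lists 7 gene copies of tRNA-Gly-TCC on chromosomes 1, 3 and 11, 14 of tRNA-Gly-GCC, 6 of tRNA-Gln-TTG and 11 of tRNA-Val-CAC, so a fragment cannot be placed at 1 locus.
Gly-TCC annotated: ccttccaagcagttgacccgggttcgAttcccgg
Gly-TCC A27T: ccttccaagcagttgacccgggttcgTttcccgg
Gly-TCC A27G: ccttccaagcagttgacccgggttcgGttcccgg
Gly-TCC A27C: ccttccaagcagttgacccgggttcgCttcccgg
Gly-GCC annotated: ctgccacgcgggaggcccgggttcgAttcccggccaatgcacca
Gly-GCC A26T: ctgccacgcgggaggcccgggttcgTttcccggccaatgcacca
Gln-TTG annotated: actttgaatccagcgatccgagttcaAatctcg
Gln-TTG A27T: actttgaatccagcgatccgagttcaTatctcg
Gln-TTG A27G: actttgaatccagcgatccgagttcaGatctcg
Val-CAC annotated: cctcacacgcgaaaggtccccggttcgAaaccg
Val-CAC A28T: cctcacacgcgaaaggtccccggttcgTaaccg

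A second set shows mitochondrial RNA, where members differ at base 9 of a tRNA or carry added adenines. The asparagine tRNA mt-Tn lies on the minus strand at chrM:5089-5159 and the large ribosomal RNA mt-Rnr2 on the plus strand at chrM:1094-2675 (GENCODE M21, GRCm38). Capitals mark base 9 of mt-Tn, base 31 of the annotated mt-Rnr2 and the added adenines of its members.
mt-Tn annotated: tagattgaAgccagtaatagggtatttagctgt
mt-Tn A9G: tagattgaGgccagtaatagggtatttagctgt
mt-Tn A9T: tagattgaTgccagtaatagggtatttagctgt
mt-Rnr2 first bases: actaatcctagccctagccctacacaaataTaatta
mt-Rnr2 30 bases and 1 A: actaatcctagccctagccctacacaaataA
mt-Rnr2 22 bases and 3 A: actaatcctagccctagccctaAAA
mt-Rnr2 22 bases and 8 A: actaatcctagccctagccctaAAAAAAAA

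The last set shows tRNA 5′ fragments changed near their start and fragments that end in AGG. RefSeq lists 16 gene copies of tRNA-Asp-GTC and 8 of tRNA-Glu-TTC. Capitals mark base 6 and, in the long form, bases 6 to 9 as a possible placement of the gap. In the deletion form they mark the bases on either side of that gap, and in the AGG forms the AGG end.
Asp-GTC 5-prime annotated: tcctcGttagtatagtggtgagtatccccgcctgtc
Asp-GTC 5-prime G6T: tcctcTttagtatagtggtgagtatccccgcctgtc
Asp-GTC 5-prime annotated, long: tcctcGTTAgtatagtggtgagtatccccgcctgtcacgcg
Asp-GTC 5-prime deletion: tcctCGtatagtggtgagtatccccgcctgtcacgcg
Glu-TTC with AGG: cggcccgggttcgactccAGG
Asp-GTC with AGG: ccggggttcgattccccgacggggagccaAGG

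Several features of single libraries touch the results. The Mdd libraries held 24031479 and 24112532 reads and the control libraries 12845403 and 22948488, of which 9706895 to 23806805 per library were 18 nt or longer and served as the total to which levels were scaled (CPM). The annotations of Mdd replicate 1 used fewer classes than those of the other libraries, so a member read in no other library could have lacked a name there for that reason. Such members made up 35.1% of its member reads, while members read in a single library held 30.6% in Mdd replicate 2 and 29.4% and 38.8% in control replicates 1 and 2. A stretch of 12 bases shared by long reads occurred in 240092 member reads of Mdd replicate 1, against 1394 in Mdd replicate 2 and 5006 and 3092 in the control libraries. All 3 markers of late germ cells (miR-34b, miR-34c and miR-449a) were read in every library, with summed levels of 2155 and 835 CPM in the Mdd libraries and 1656 and 1623 CPM in the controls. The 3 markers of striated muscle (miR-1a, miR-133a with miR-133b, and miR-206) summed to 12.5 and 3.91 CPM in the Mdd libraries and 28.7 and 1034 CPM in the controls, so control replicate 2 stood apart.

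Members made up 14.0% and 15.8% of reads of 18 nt or longer in the Mdd libraries, and 14.1% and 9.85% in the control libraries. The means were 14.9% ± 1.27 in Mdd and 11.98% ± 3.01 in control (SD, n = 2 each), and the groups overlapped (exact two-sided permutation test, p = 0.667, where 0.333 is the smallest p that 2 against 2 samples allow). Unannotated sequences that do match the genome were far fewer reads, at 3.39% and 3.04% in Mdd and 3.12% and 3.69% in control. With all reads as the total, the member shares were 13.8% and 15.6% in Mdd and 10.7% and 7.20% in control, without overlap (exact permutation test, p = 0.333). The control libraries hold many reads of 15 to 17 nt, which enter that total. Without members that hold the shared stretch or end in AGG, the shares were 12.6% and 10.2% in Mdd and 13.9% and 9.14% in control. Restricted to members read in a library other than Mdd replicate 1, the share of that library was 9.06%, and the mean difference was 0.42 percentage points. This restriction drops members from Mdd replicate 1 alone, and the other libraries keep the members that only they hold, so the groups are not treated alike.

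**Figure D1:**
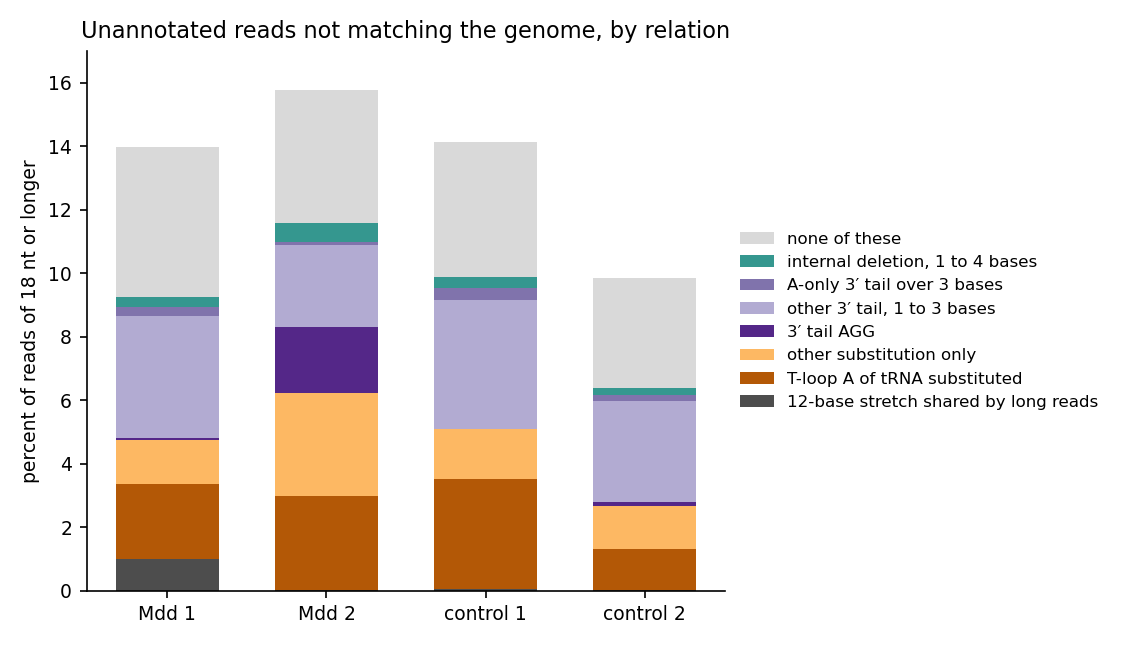
Unannotated reads not matching the genome in each library, as a percent of reads of 18 nt or longer (vertical axis), stacked by their relation to annotated sequences. Each member is counted once, and a member with both a substitution and a tail counts as tailed unless it changes the T-loop A. The AGG tails of Mdd 2 reach 2.09% of its reads, against 0.137% or less in the other libraries.

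Most members were rare, and a small set held most reads. In all, 62.5% of members had a single read over the 4 libraries, and 123132 members with 10 reads or more held 86.8% of member reads. A single library held 90.1% of members, while 10605 members (1.26%) were read in all 4. Those 10605 members held 47.4% and 51.0% of member reads in the Mdd libraries and 56.5% and 45.7% in the controls. The deposited counts carry no molecular identifiers, so copies made by PCR cannot be told apart from separate molecules. The 95% Wilson intervals of these shares reach at most 0.0801 percentage points to either side and cover counting error only.

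Members were longer than other reads. Their mean length was 31.4 and 30.04 nt in the Mdd libraries and 31.5 and 29.1 nt in the controls, against 25.7 to 26.3 nt for all other reads of 18 nt or longer. The Mdd and control means did not separate (exact permutation test, p = 1). Lengths of 30 to 35 nt took 41.9% and 42.98% of member reads in Mdd and 50.7% and 51.7% in control, a difference of -8.75 percentage points without overlap (exact permutation test, p = 0.333). Other reads of that length were also fewer in Mdd, at 20.7% and 19.6% against 21.7% and 24.9% in control. Lengths of 43 to 45 nt held 11.3% and 1.93% of member reads in the Mdd libraries and 3.92% and 0.391% in the controls. In Mdd replicate 1, 99.3% of the reads with the shared 12-base stretch had these lengths, with a median of 11 bases before the stretch. Their part in other differences of that library was not tested beyond the values given without them.

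**Figure D2:**
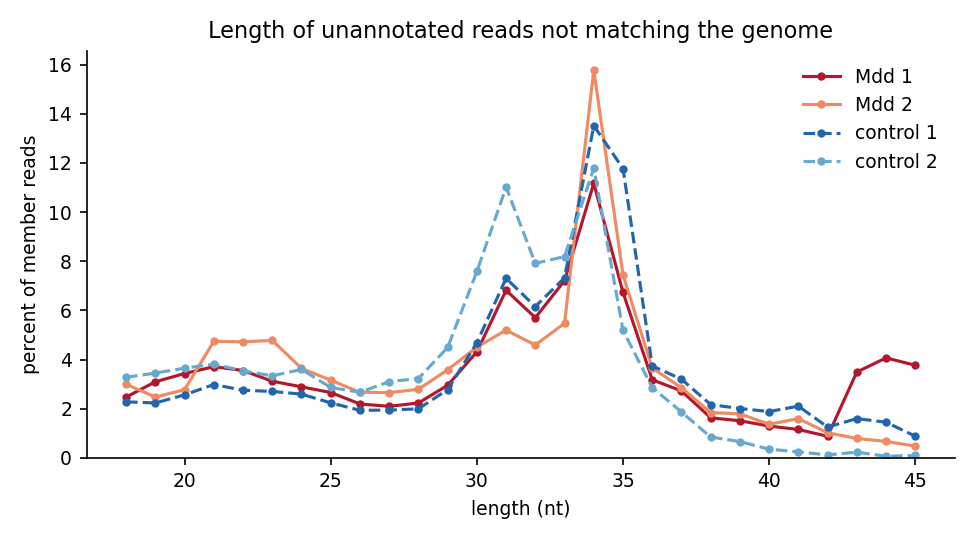
Percent of member reads (vertical axis) at each length in nt (horizontal axis), with Mdd libraries as solid and control libraries as dashed lines. All 4 libraries peak at 34 nt, and Mdd 1 has a second peak at 43 to 45 nt, where it holds 11.3% of its member reads, against 3.92% or less in the other libraries.

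More than 54% of member reads were near an annotated sequence in every library. The shares were 54.7% and 69.0% in Mdd and 64.5% and 60.5% in control, a mean difference of -0.62 percentage points that lay within the spread (exact permutation test, p = 1). A substitution related 42.5% and 58.5% of member reads in Mdd and 52.99% and 45.6% in control, and a 3′ tail 29.6% and 30.8% in Mdd and 30.7% and 34.9% in control. Of distinct members, 36.5% were near a parent. The level depends on which parents are allowed: with parents that have at least as many reads as the member it was 28.5% and 39.0% in Mdd and 34.98% and 36.2% in control, and with parents that match the genome 40.1% and 47.7% in Mdd and 51.3% and 45.9% in control. Unannotated sequences that match the genome were near a parent far less often, with 9.65% and 8.23% of reads in Mdd and 5.71% and 5.11% in control. For the members read outside Mdd replicate 1, the near share of that library was 73.7% in place of 54.7%, and the mean difference turned to 8.89 percentage points. Members held by a single library are dropped there from Mdd replicate 1 alone, so this difference does not compare the groups on equal terms.

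tRNAs gave the largest share of substituted member reads. tRNA parents held 48.6% and 42.8% of them in Mdd and 54.4% and 40.5% in control. The order of the next classes differed between libraries. piRNA-labelled parents held 21.8% and 20.7% in Mdd and 17.9% and 29.9% in control, and mitochondrial RNA 20.2% and 7.62% in Mdd and 21.2% and 18.0% in control. Some piRNA-labelled parents were themselves 1 substitution or a short tail from a tRNA, ribosomal or mitochondrial sequence. Parents with no such relation held 61.0% and 41.6% of the substituted reads with a piRNA-labelled parent in Mdd and 63.6% and 75.8% in control. Nuclear ribosomal RNA gave 7.24% and 25.9% in Mdd and 4.94% and 8.38% in control, high in Mdd replicate 2. miRNA parents gave at most 0.600% in any library.

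A single position accounted for much of the substitution. In tRNA parents the A of TTCGA or TTCAA, the T-loop adenine that can carry the N1 methyl group, was the changed base in 39.6% and 32.2% of all substituted member reads in Mdd and 46.4% and 28.6% in control. Among substituted reads with a tRNA parent, this position held 81.4% and 75.2% in Mdd and 85.4% and 70.4% in control. The base read in its place was T in 78.4% and 72.5% of cases in Mdd and 70.1% and 76.9% in control. G followed with 18.9% and 24.8% in Mdd and 26.3% and 20.8% in control, and C stayed between 2.33% and 3.58%. The order T, G, C was the same in all 4 libraries.

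The T-loop fragments of tRNA-Gly-TCC led the list. The 34 nt member with A27T, printed above, had 151814 and 237197 reads in the Mdd libraries and 68277 and 66324 in the controls, or 6393 and 9963 CPM in Mdd and 7034 and 3957 CPM in control. Its annotated form had 47543 and 50396 reads in Mdd and 21691 and 22585 in control, so the unannotated form was the more read in every library. The Mdd and control levels overlapped, with a log2 fold change of 0.98 ± 1.41 (SE; edgeR's quasi-likelihood test with Benjamini-Hochberg adjustment, adjusted p = 0.9999, unadjusted p = 0.518). A27G had 32876 and 89770 reads in Mdd and 27365 and 14626 in control, and A27C had 4439 and 9413 in Mdd and 3790 and 1624 in control. Mdd replicate 2 was the highest library for each of these 3 members and control replicate 2 the lowest in CPM.

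**Figure D3:**
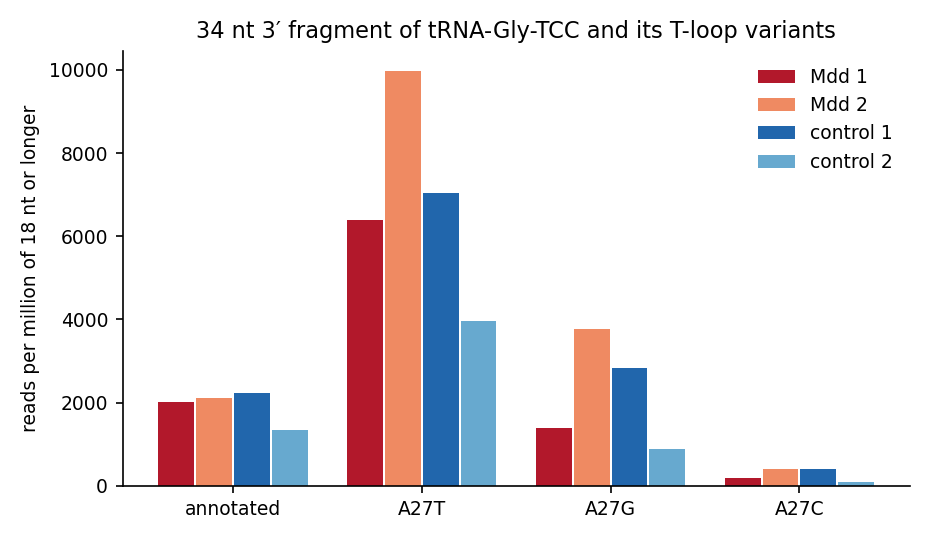
Level of the 34 nt fragment of tRNA-Gly-TCC, which crosses the T-loop and stops before the CCA end, as annotated and with A27T, A27G or A27C. The vertical axis gives CPM of reads of 18 nt or longer, with 1 bar per library. A27T lies between 3957 and 9963 CPM and above the annotated form in each library.

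The T-loop share was read directly for each tRNA as the member reads with another base at this A, over those reads plus the unchanged annotated ones. In tRNA-Gly-TCC it was 78.4% and 82.2% in Mdd and 80.3% and 77.3% in control. It was close to that in the glutamine tRNA Gln-TTG, printed above, with 78.3% and 83.2% in Mdd and 83.8% and 81.1% in control, and in Val-CAC with 73.8% and 76.8% in Mdd and 79.9% and 71.8% in control. It was far lower in Asp-GTC, with 12.3% and 13.6% in Mdd and 14.4% and 8.34% in control. In Glu-TTC, which had 746255 unchanged reads, it stayed at or under 0.786%, but 53205 further changed reads carry a label, and with these the share was 4.11% and 7.27% in Mdd and 12.5% and 4.46% in control. Of 26 isoacceptors with at least 1000 reads in every library, 12 had a mean above 50% among members and 18 with any label counted. Means with any label ran between 7.09% in Glu-TTC and 91.6% in Gly-CCC, whose mean among members was 53.8%, so part of the spread among members lies in which changed forms carry a label.

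The base that replaced the A also differed between tRNAs. T made up the majority of changed reads in 19 of the 26 and G in 5. In Gly-GCC, whose 44 nt member A26T ends in the CCA of mature tRNAs, 96.8% of changed reads had T and 3.18% had C. In Trp-CCA 61.6% of changed reads had G, and in Asn-GTT 62.3%. Some changed forms carry a label in the files, mostly as piRNA, and are not members. Counting changed reads with any label raised the median share over the 26 tRNAs to 64.8% and 72.1% in Mdd and 77.1% and 63.3% in control, against 30.8% and 45.0% in Mdd and 54.9% and 35.4% in control for members alone.

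No tRNA had a higher T-loop share in both Mdd libraries than in both controls, which is 0% of the 26. In 8 of 26 (30.8%) both Mdd libraries were lower, and 18 overlapped. Examples of the 8 were Thr-TGT, with 65.0% and 71.8% in Mdd and 75.2% and 74.4% in control, and Arg-CCG, with 45.5% and 45.3% in Mdd and 69.3% and 52.1% in control. Over all tRNAs together the share was 48.9% and 48.1% in Mdd and 57.7% and 49.1% in control, a difference of -4.90 percentage points (exact permutation test, p = 0.333). The pooled share weights each tRNA by its reads. Taken tRNA by tRNA, the median of the 26 differences was -0.47 percentage points, with 15 below 0 and 11 above. With any label counted that median was -3.48. Control replicate 2 was below control replicate 1 in 25 of the 26 tRNAs, so the controls differed from each other throughout. With any label counted, 0 were higher, 4 (15.4%) were lower and 22 overlapped, and the pooled shares overlapped at 59.7% and 64.8% in Mdd and 71.4% and 63.3% in control (exact permutation test, p = 0.667).

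**Figure D4:**
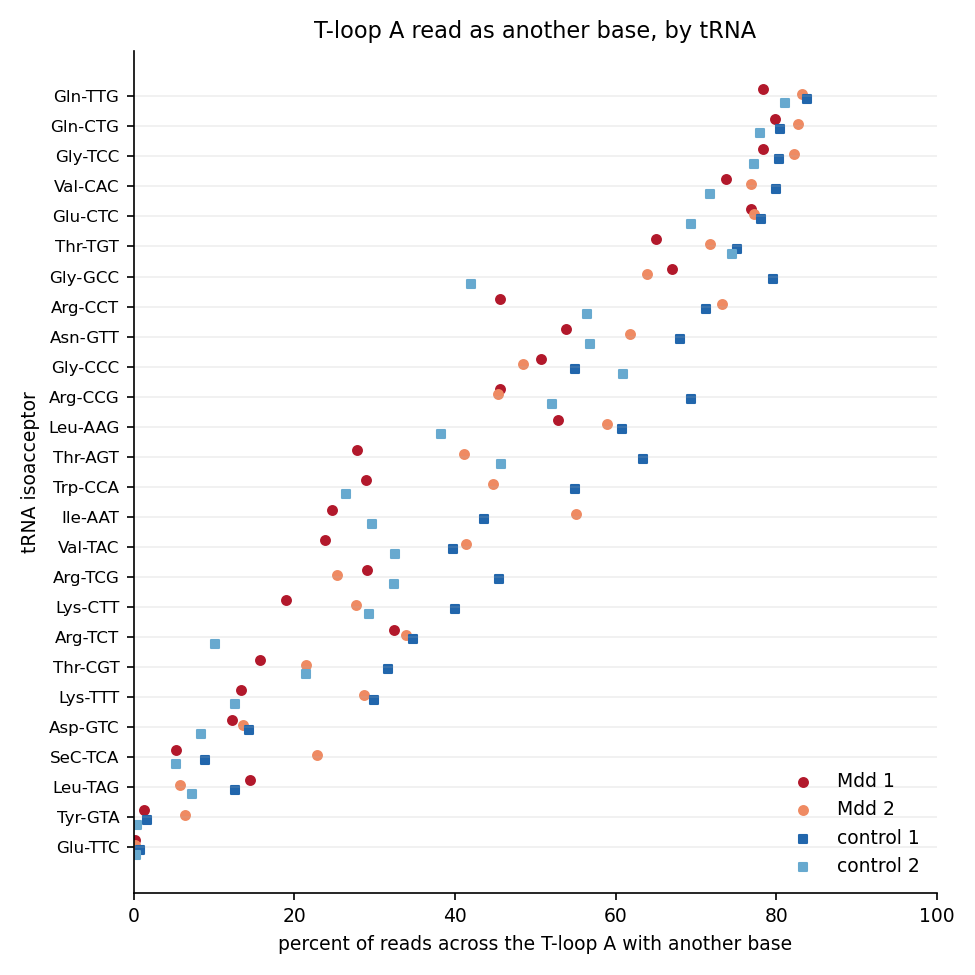
T-loop share of 26 tRNA isoacceptors (vertical axis), as the percent of reads across the T-loop A that are members with another base (horizontal axis), with circles for Mdd and squares for control libraries. Means run between 81.6% in Gln-TTG and 0.344% in Glu-TTC, with 8 tRNAs in which both Mdd libraries lie below both controls.

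Base 9 was the most changed base of mt-Tn, mt-Tv and mt-Tl2. Mammalian mitochondrial tRNAs are known to carry an N1 methyl group there, on A or G. In the shares of mitochondrial tRNAs, only member reads count as changed, over those plus the unchanged reads. Changed forms that carry a label were not counted. In mt-Tn, the tRNA for asparagine, A9 was read as another base in 45.1% and 44.9% of reads in Mdd and 45.6% and 39.3% in control. Its leading 33 nt member A9G, printed above, had 7498 and 3280 reads in Mdd and 4209 and 5608 in control, against 7224 and 2952 of the annotated form in Mdd and 4415 and 6011 in control. A9G was thus the more read form in both Mdd libraries and the less read in both controls, while the share over all fragments overlapped. In mt-Tv, the valine tRNA, the share at A9 was 27.2% and 35.4% in Mdd and 36.6% and 30.8% in control, and in mt-Tl2, a leucine tRNA, 25.5% and 18.3% in Mdd and 21.99% and 26.3% in control. The groups overlapped for all 3, and control replicate 2 was lowest for mt-Tn.

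Among 272 positions with at least 2000 unchanged reads over the 4 libraries, these 3 were changed in over 10% of the summed reads, and the median was 0.0289%. The next was G19 of mt-Tk, the lysine tRNA, changed in 3.86% and 10.6% of reads in Mdd and 17.8% and 9.28% in control. G10 was changed in 1.21% and 2.50% of mt-Tn reads in Mdd and 2.93% and 2.10% in control. The base read differed between them: G made up 81.7% of the changed reads at mt-Tn A9, while T led with 65.9% at mt-Tv A9 and 63.3% at mt-Tl2 A9. An adenine at base 9 was not always changed among members, since mt-Ta had 39022 unchanged and 76 changed member reads there. With fewer unchanged reads than the limit of 2000, mt-Tr A9 had 396 unchanged and 232 changed reads and mt-Tg A9 had 109 and 95. At mt-Tp A9 there were 91 and 0.

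tRNA 5′ fragments carried weaker substitutions at fixed bases. Of 680 positions with at least 20000 unchanged reads, 28 were changed in over 1% of reads, with a median of 0.0288%. Asp-GTC G6 was changed in 12.9% and 11.9% of reads in Mdd and 10.3% and 10.6% in control, and its 36 nt member G6T had 2073 and 530 reads in Mdd and 523 and 695 in control. Arg-CCG G9 was changed in 15.8% and 23.6% of reads in Mdd and 24.3% and 11.7% in control. Base 26, which is dimethylguanosine in many tRNAs, was changed in 3.56% and 3.32% of Val-CAC reads in Mdd and 3.13% and 3.32% in control. In Val-TAC it was 2.08% and 2.05% in Mdd and 1.73% and 1.86% in control. Gly-GCC G6 was changed in 10.4% and 14.0% of reads in Mdd and 6.13% and 3.56% in control. Over the 28 positions, both Mdd libraries lay above both controls at 9 (32.1%) and below both at 2 (7.14%), and 17 overlapped. The 9 include Asp-GTC G6, Gly-GCC G6, Val-TAC G26 and Val-CAC G26. At Val-CAC G26 the order rests on 3.3222% in Mdd replicate 2 against 3.3219% in control replicate 2. Positions of 1 tRNA share reads, and those named were picked after their values were seen.

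Deletions were a smaller set. A deletion of 1 to 4 bases inside a parent accounted for 2.23% and 3.71% of member reads in Mdd and 2.63% and 2.35% in control, over 11640 members. With tRNA 5′ fragments as parents, 83.95% and 62.99% of these reads in Mdd and 80.4% and 57.95% in control had the deletion start between bases 4 and 10 at its leftmost placement. The Asp-GTC form printed above lacks 4 bases that begin at base 6, 7 or 8, which all leave the same letters, and had 546 and 363 reads in Mdd and 129 and 361 in control, against 775 and 249 reads of its annotated 41 nt form in Mdd and 331 and 153 in control. In Mdd replicate 2 and control replicate 2 the deleted form was the more read.

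Tails of 1 base were A or T in most libraries. A made up 45.1% and 30.7% of 1-base tails in Mdd and 50.5% and 31.97% in control. T made up 35.2% and 18.1% in Mdd and 31.4% and 43.1% in control, and C 12.3% and 10.99% in Mdd and 12.2% and 13.2% in control. G made up 7.45% and 40.2% in Mdd and 5.89% and 11.7% in control. Mdd replicate 2 was set apart by G, and without it the mean difference for G turned to -1.36 percentage points. Mdd and control overlapped for each of the 4 bases (exact permutation test, p = 0.667 for each). Many A tails are also 1 substitution from another annotated sequence. Without such members A made up 13.6% and 13.1% in Mdd and 12.7% and 10.9% in control, and T 69.98% and 41.0% in Mdd and 71.6% and 73.6% in control.

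The tail base differed between classes of parent. On mitochondrial RNA the 1-base tail was A in 90.3% and 73.4% of reads in Mdd and 91.8% and 86.6% in control. On piRNA-labelled parents it was T in 56.4% and 26.7% of reads in Mdd and 55.0% and 60.1% in control. G led there in Mdd replicate 2, with 46.9%. On tRNA parents it was G in 59.3% and 71.8% in Mdd and 41.9% and 66.9% in control. On nuclear ribosomal RNA the leading base was T in Mdd replicate 1 (40.9%) and control replicate 1 (32.1%), and G in Mdd replicate 2 (64.5%) and control replicate 2 (34.7%). On mitochondrial RNA T stayed at or under 0.483% in all 4 libraries.

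**Figure D5:**
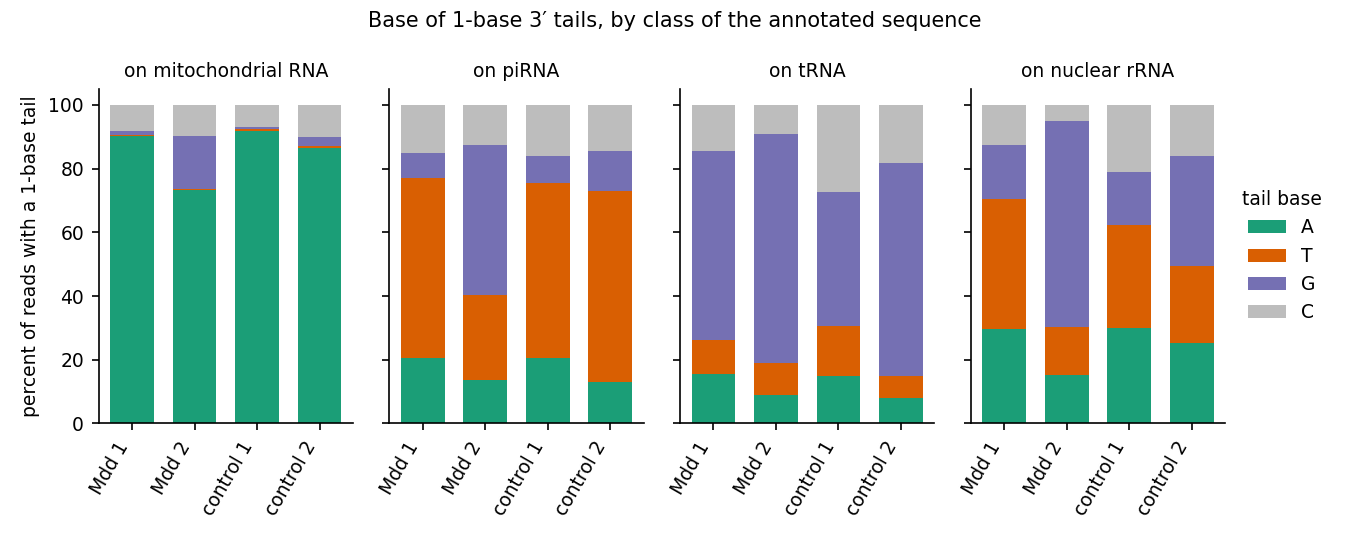
Base of 1-base 3′ tails as a percent of reads with such a tail (vertical axis), for 4 classes of parent and 4 libraries. A fills 73.4% or more on mitochondrial RNA in every library, and Mdd 2 holds more G than the other libraries in each class.

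Adenine tails on mitochondrial ribosomal RNA were followed further for the fragments that start at base 1 of mt-Rnr2 and stop at several places inside it. These are a subset: of the member reads on mt-Rnr2 with 1 to 3 added A, 88015 of 206041 and 13106 of 86704 in Mdd and 47827 of 109607 and 17029 of 65346 in control started at base 1. The 31 nt member with 30 bases of mt-Rnr2 and an added A, printed above, had 31758 and 5574 reads in Mdd and 12464 and 9309 in control, with a log2 fold change of -0.14 ± 1.09 (SE; edgeR, adjusted p = 0.9999). The same letters are T31A of an annotated 31 nt fragment, so for this member an added and a misread base cannot be told apart. The same limit holds for the printed member of 22 bases and 3 A, which is also C23A of a piRNA-labelled sequence. It holds too for a 35 nt member with an A after base 34, which is also T35A of an annotated fragment. The extension shares that follow count such reads as extended. There were 178 members that start at base 1 and carry 1 to 25 added adenines. Of their reads plus those of unextended mt-Rnr2 5′ fragments, they made up 10.6% and 7.51% in Mdd and 13.6% and 10.9% in control. Both Mdd libraries lay below both controls, a difference of -3.19 percentage points (exact permutation test, p = 0.333). The gap between Mdd replicate 1 and control replicate 2 was 10.6% against 10.9%, smaller than the gap within either group. Extended forms that carry a label are not members and are left out of these shares. Among them, the piRNA-labelled form 1 A shorter than the printed 22 bases and 3 A had 16904 and 3387 reads in Mdd and 3880 and 3306 in control. Their effect on the shares and their order was not tested.

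The added adenines formed runs and not a single length. Among extended member reads, runs of 1 A made up 34.7% and 28.98% in Mdd and 39.8% and 31.9% in control. Runs over 3 A made up 32.8% and 33.8% in Mdd and 29.2% and 36.8% in control. The 3 commonest ends of the templated part were base 30 with 28.9% of the extended member reads, base 22 with 20.7% and base 28 with 15.1%. Bases 22, 28 and 30 are themselves A and were counted as templated, so an earlier end with more added A leaves the same letters. After base 30 the template reads T, A and A, so runs of 2 or 3 A there also equal a change of T31 alone. After base 22, the member with 3 A had 15163 and 3374 reads in Mdd and 2997 and 3266 in control, and the member with 8 A had 2121 and 334 in Mdd and 694 and 740 in control. In bulk RNA, fewer cells with such fragments and fewer fragments per cell cannot be told apart.

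An AGG at the 3′ end marked Mdd replicate 2. Tails of exactly AGG had 21100 and 498986 reads in the Mdd libraries and 1917 and 23202 in the controls, so 91.5% of these reads came from Mdd replicate 2. Of all member reads, 2.68% and 34.9% in Mdd and 1.08% and 7.03% in control ended in AGG. The ending was also common among other reads of that library, at 1.54% and 14.1% in Mdd and 1.59% and 2.51% in control. The 21 nt Glu-TTC member with AGG, printed above, had 120 and 24326 reads in Mdd and 20 and 178 in control. The same letters are C19A of an annotated Glu-TTC fragment with 48388 and 316762 reads in Mdd and 40249 and 31414 in control. For this member an added AGG and a single changed base therefore cannot be told apart. The 32 nt Asp-GTC member, where AGG follows the mature CCA end, had 452 and 6594 reads in Mdd and 28 and 284 in control. The parents were spread over piRNA-labelled, nuclear ribosomal and tRNA sequences, with 41.1%, 33.4% and 21.6% of the AGG-tailed reads of Mdd replicate 2. The AGG ending separates 1 library and not the Mdd group.

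The 10 members of highest mean level held 13.7% of member reads. Of these, 6 were the Gly-TCC fragment of 32 to 35 nt with A27T or A27G. The others were the 44 nt Gly-GCC fragment with A26T, the mt-Rnr2 fragment with 1 A, and 2 members with an added T on a piRNA-labelled parent. Gly-GCC A26T had 13488 and 6883 reads in Mdd and 8057 and 171 in control, where control replicate 2 was far below the rest. Of the members on piRNA-labelled parents, the 34 nt one had 41240 and 12014 reads in Mdd and 9142 and 17951 in control, and the 31 nt one had 14736 and 2508 in Mdd and 3384 and 7798 in control. Log2 fold changes of the 10 lay between -0.27 and 0.98 with SEs of 0.90 to 1.78, and the lowest unadjusted p was 0.501 (edgeR's quasi-likelihood test).

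Members with parents of other classes were fewer. For nuclear ribosomal RNA, the most read tailed member equalled a 5.8S rRNA fragment plus CT, with 4797 and 3387 reads in Mdd and 894 and 861 in control. That parent fragment had only 44 and 43 reads in Mdd and 5 and 0 in control, so the member was far more read than its parent. The Mdd reads of the member exceeded those of both controls, with a log2 fold change of 1.54 ± 0.75 (SE; edgeR, adjusted p = 0.525). The most read substituted member, A3T of a 34 nt 28S rRNA fragment, had 87 and 6288 reads in Mdd and 60 and 104 in control, high in Mdd replicate 2. The next most read were an 18S rRNA fragment with AGG, at 449 and 6688 reads in Mdd and 20 and 600 in control, and G1T of a 37 nt 28S rRNA fragment, at 1369 and 3724 in Mdd and 369 and 345 in control. Among tRNA 5′ fragments, a 36 nt valine member with an added GAC had 4398 and 2338 reads in Mdd and 1790 and 3891 in control. It is also C34G of an annotated valine fragment. Among mitochondrial RNA, mt-Rnr2 with an A after base 34 had 11968 and 1667 reads in Mdd and 7425 and 1847 in control. On piRNA-labelled parents, a 23 nt member that ends in AGG had 194 and 31627 reads in Mdd and 72 and 258 in control. It equals a parent plus AGG and also G21A of another piRNA-labelled sequence. These members follow the library pattern of AGG ends where they carry one, and otherwise overlapped between groups apart from G1T and the 5.8S member. For miRNA, the most read tailed member was miR-34c with AGG, at 125 and 1074 reads in Mdd and 3 and 250 in control. Its parent had 72 and 3 reads in Mdd and 0 and 21 in control. The second most read tailed member, miR-96 with an added T, had 124 and 37 reads in Mdd and 0 and 78 in control. It is also C22T of another annotated miR-96 form. A17G of miR-1a had 0 and 0 reads in Mdd and 19 and 1567 in control, and a 20 nt form 0 and 0 in Mdd and 1 and 280 in control. It was read most in control replicate 2, the library in which the unchanged striated muscle markers were also highest, at 1034 CPM in sum. Whether it tracks material from muscle was not tested.

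No member passed the test between Mdd and control. Of 98704 sequences that passed the filter on low counts in the fit on the whole table, 17654 were members, and edgeR's quasi-likelihood test with Benjamini-Hochberg adjustment called 0 of them higher and 0 lower (0% of all tested sequences in either direction). These members were 2.10% of all members and held 56.4% of member reads. An unadjusted p under 0.05 was reached by 2393 of them (13.6%), against 13.9% of all tested sequences. DESeq2 called 100 members higher (0.566%) and 24 lower (0.136%), against 0.205% and 0.0659% of all tested sequences. With the replicate number as a block edgeR called 12 members higher and 4 lower, where 0.0223% and 0.00912% of all tested sequences were called, and without the filter 117 and 5, where 0.0216% and 0.00118% were. The lowest adjusted p in edgeR was 0.246.

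The members of lowest p were rare. In Mdd, the 3 highest-ranked members of the positive side had 343 and 326, 346 and 308, and 323 and 282 reads, all against 0 and 0 in control. Set against a floor of 3 reads per library they were at least 57.7-fold, 56.4-fold and 52.1-fold higher in Mdd, at an adjusted p of 0.246 (edgeR). On the negative side 3 members had 0 and 0 reads in Mdd and 5 and 10 in control, at least 4.41-fold lower, also at 0.246. These 6 members were 18 to 33 nt long, and 1 of the 6 was near an annotated sequence, as a 29 nt member with an added C on a piRNA-labelled parent.

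A remainder had none of these relations. It held 33.8% and 26.6% of member reads in Mdd and 29.9% and 35.2% in control, over 467889 members of which 64.5% had a single read. Another substitution or tail on a near member accounted for 14.4% and 33.2% of its reads in Mdd and 22.1% and 14.6% in control. Beyond that, 391666 members had no relation found here, with 28.95% and 17.8% of member reads in Mdd and 23.3% and 30.1% in control. Of their reads, 74.4% lay in members of a single library. The most read of them, 21 nt long with 38.1% G and C, had 5255 and 1280 reads in Mdd and 2018 and 1563 in control. The next, of 22 nt, had 2964 and 807 in Mdd and 1164 and 865 in control, and their source was not tested.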

How the data were processed

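Small RNA of 2 Mdd and 2 control samples was analysed from the deposited tables. Per the file headers, each row is a distinct sequence with its raw read count, length, genome mark and annotation. The deposited counts were used unchanged. The submitters' processing notes name mm9 and DESeq2, without versions; for the aligner, trimming and annotation, a description is not given in the sources used here. Members, lists and rules were chosen with earlier results of these data known. Named were the 10 members of highest mean CPM, the 3 of lowest p in each direction since fewer than 3 passed, and per parent class the 2 most read with a tail and with a substitution. Where several parents were 1 substitution away, the most read was taken, and the shortest tail.

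Counts of every sequence of 18 nt or longer were fitted with edgeR 4.0.16 in R 4.3.3 (quasi-likelihood test, TMM, filterByExpr, two-sided, Benjamini-Hochberg, threshold 0.05), and with DESeq2 1.42.0 as an alternative. SEs were derived from the fold change and the F statistic. Shares were compared by exact permutation. Tables were joined in Python 3.11.15 (pandas 2.3.3), permutations were enumerated in full, and intervals used scipy 1.17.1. The search for parents was tested on made-up sequences and the fit on simulated counts. The spread of those counts was set in advance and not taken from these data, so power in these data was not tested. Members printed here are restricted to annotated tRNA and mitochondrial parents.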

Additional observations from a re-analysis of the deposited data

How the results depend on the processing

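Of 63 comparisons under alternatives other than leaving out a library, 47 kept their direction or count, 10 reversed and 6 gave more calls. The 47 include the call counts, higher and lower, for members held by a file other than that of Mdd replicate 1. These counts could not change, since all 17654 tested members were held by another file. Values are Mdd minus control in percentage points, or nt for length. The near share, -0.62 as reported, was 8.89 for members held by a file other than that of Mdd replicate 1 and 1.36 without the shared stretch. The substitution share, 1.19 as reported, was -2.04 with genome-matched parents and -1.23 over distinct sequences. The tail share, -2.65 as reported, was 2.59 for members held by another file. That restriction changes the values of Mdd replicate 1 alone. Tail base A, -3.37 as reported, was 1.53 without members that a substitution also gives and 0.37 with genome-matched parents, where C was 0.38 in place of -1.07. Mean length, 0.40 nt as reported, was -0.0632 nt without the shared stretch, and the member share, 2.88 as reported, was -0.11 without the stretch and AGG ends. Alternatives without the stretch or AGG ends, with any T-loop label, or on other reads were chosen after seeing the data. The cause of these reversals was not tested.

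Leaving out each library in turn gave 0.75 to 5.01 for the member share, -7.76 to 6.53 for the near share, -6.83 to 9.21 for the substitution share, -4.76 to -0.53 for the tail share, and -0.80 to 1.60 nt for length. For tail bases it gave -12.6 to 5.92 for A, -1.72 to -0.41 for C, -1.36 to 31.4 for G and -19.1 to -2.08 for T. Reads ending AGG gave -1.38 to 30.9, lengths of 30 to 35 nt -9.27 to -8.22, the pooled T-loop share -9.22 to -0.58, and the mt-Rnr2 extension -4.73 to -1.64.

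Member calls, 0 higher and 0 lower as reported, stayed 0 with RLE scaling or library size only. DESeq2 gave 100 higher and 24 lower, and no filter gave 117 and 5. The replicate number as a block gave 12 higher and 4 lower. Deviations of samples of the same number had a correlation of 0.0276 over 98704 sequences, and those of crossed numbers -0.0276. With 2 samples per group these values mirror each other, so they cannot show whether the numbers pair the samples. Leaving out control replicate 1 or control replicate 2 gave 0 higher and 1 lower, and leaving out an Mdd library 0 and 0, with the lone sample assumed to vary like the rest. Library size alone moved the median log2 fold change of all sequences to -0.36, against -0.05 with TMM. Depth limits single members: 62.5% had 1 read, and 2.10% passed the filter.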
